A study of Mus musculus with 8 samples.

Results

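Tle1 and Tle4 are members of the Groucho (TLE) family of transcriptional corepressors, and this account concerns the peaks of 8 deposited ChIP-seq lists that lie around these 2 genes. The members were chosen by position: a peak belonged to the Tle1 locus if its centre lay on chromosome 4 between 71400000 and 72300000 (genome build mm9, a stretch of 0.9 Mb), and to the Tle4 locus if its centre lay on chromosome 19 between 14200000 and 15000000 (0.8 Mb). The stretches were selected on the OTX2 peaks themselves, since the Tle1 stretch holds a region ranked at or near the top of every OTX2 list. Numbers, ranks and overlaps of OTX2 peaks in them are therefore descriptions, with no test. They hold 62 of 26317 peaks, 28 at Tle1 and 34 at Tle4.

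The chromatin came from wildtype CD-1 mouse embryos at stage E12.5, and every group shared strain, genotype and stage. Septum, medial ganglionic eminence and lateral ganglionic eminence were dissected together and pooled over embryos, so no peak can be given to one of these tissues, and strong binding in few cells cannot be told apart from weak binding in many. Groups differed in the precipitation: 3 libraries with an antibody against the homeodomain factor OTX2, 2 with normal goat IgG and 3 of input chromatin without antibody. By the title of the series, the question was what OTX2 controls in patterning of the medial ganglionic eminence and in septal identity.

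Groucho proteins do not bind DNA by themselves. Transcription factors bring them to chromatin through short peptide motifs that contact their WD40 domain, and the corepressors then recruit histone deacetylases and silence the target. Many repressors that pattern the neural tube and forebrain work this way, among them HES1, SIX3 and NKX2-2, and the OTX2 and GBX2 proteins are themselves known to bind the WD40 domain of TLE proteins. Tle1 and Tle4 are thus genes for cofactors that OTX2 can use, and the lists show where OTX2 was found around them.

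In RefSeq's annotation of a later build (GRCm38.p6), both genes lie on the minus strand, so that each starts at the upper end of its coordinates. The next protein-coding genes in that annotation are Gm11232 below and Aldoart1 above Tle1, and the olfactory receptor gene Olfr1505 below and Psat1, an enzyme gene of serine synthesis, above Tle4. Positions of the genes in mm9 were available only as the approximate extents named with the windows, 71.78 to 71.86 Mb for Tle1 and 14.52 to 14.67 Mb for Tle4. The RefSeq gene lengths were 91.0 kb for Tle1 and 150.1 kb for Tle4, against extents of 80 and 150 kb. Distances from a gene are therefore given to 10 kb, and no peak is assigned to an exon, intron or promoter.

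Start regions are shown here because the lists hold peaks at the upper end of both extents. Each sequence runs 5′ to 3′ from 250 bases before to 50 bases after a RefSeq start in GRCm38.p6, on the minus strand, and Tle4 has 2 listed starts. Positions in that build cannot be set against the mm9 positions of the peaks. Capitals mark the letters TAATC, the core of the motif TAATCC that OTX2 and related homeodomains recognise, or its reverse complement GATTA.
Tle1, chr4:72200844-72201143: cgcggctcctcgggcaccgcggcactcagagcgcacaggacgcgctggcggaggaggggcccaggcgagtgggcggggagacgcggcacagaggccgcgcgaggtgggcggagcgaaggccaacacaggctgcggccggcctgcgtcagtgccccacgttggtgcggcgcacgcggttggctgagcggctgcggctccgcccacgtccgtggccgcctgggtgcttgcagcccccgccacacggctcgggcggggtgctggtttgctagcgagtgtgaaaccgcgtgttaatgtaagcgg
Tle4 outer start, chr19:14598134-14598433: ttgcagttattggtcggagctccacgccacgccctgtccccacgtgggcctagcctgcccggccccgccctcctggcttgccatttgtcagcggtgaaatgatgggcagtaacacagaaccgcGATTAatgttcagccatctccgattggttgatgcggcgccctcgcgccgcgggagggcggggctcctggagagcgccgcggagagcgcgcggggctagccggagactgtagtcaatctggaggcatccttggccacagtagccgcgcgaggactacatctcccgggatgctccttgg
Tle4 inner start, chr19:14597164-14597463: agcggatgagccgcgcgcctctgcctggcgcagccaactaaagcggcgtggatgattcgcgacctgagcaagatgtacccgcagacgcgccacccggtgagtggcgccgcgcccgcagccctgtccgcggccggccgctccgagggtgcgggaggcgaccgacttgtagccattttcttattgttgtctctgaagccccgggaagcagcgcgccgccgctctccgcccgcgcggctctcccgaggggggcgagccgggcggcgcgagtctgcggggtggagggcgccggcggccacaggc

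The core occurred once among these 3 sequences, as GATTA beginning 127 bases before the outer Tle4 start. TAATCC or GGATTA occurred in none of them, and in 7.06% of all 32851 promoter sequences of the table. The core, which every TAATCC contains, was present in 22.0% of all promoter sequences. Of 6 family genes looked for (Tle1, Tle2, Tle3, Tle4, Tle5 and Tle6), 5 had an entry, with 7 sequences in all, and the outer Tle4 start was the one sequence of the 7 with a core. The Tle1 and Tle4 promoters were rich in G and C (73.7% at Tle1, 65.0% and 73.0% at the outer and inner Tle4 starts). The median over all promoters was 52.7%. The other family sequences ran from 53.7% at Tle3 to 68.0% at a Tle6 start. A match, or its lack in a window of 300 bases, says nothing on whether OTX2 was bound there, and the sequences under the peaks were not analysed here.

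OTX2 peaks were present at both genes in all 3 OTX2 libraries. The 5 control lists, which hold 846 peaks over the whole genome, had 1 peak there. At Tle1, OTX2 replicates 1, 2 and 3 held 4, 5 and 18 peaks. At Tle4 they held 7, 6 and 21 peaks. Both replicate 1 and replicate 2 thus placed 11 peaks at the 2 loci and replicate 3 placed 39, from lists of 1848, 1298 and 22325 peaks. The input and IgG lists, of 138 to 235 peaks, held a peak in neither window except for input replicate 2. That list had 1 peak at Tle1, at position 71806336 to 71806492 with rank 90 of 142, and no OTX2 peak overlapped it. Over the whole lists, 0.675% of OTX2 peaks were overlapped by an input or IgG peak, against 0 of the 61 at these loci. This count is near the background. The lists hold positions and ranks but neither counts nor scores, so sequencing depth is unknown.

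**Figure D1:**
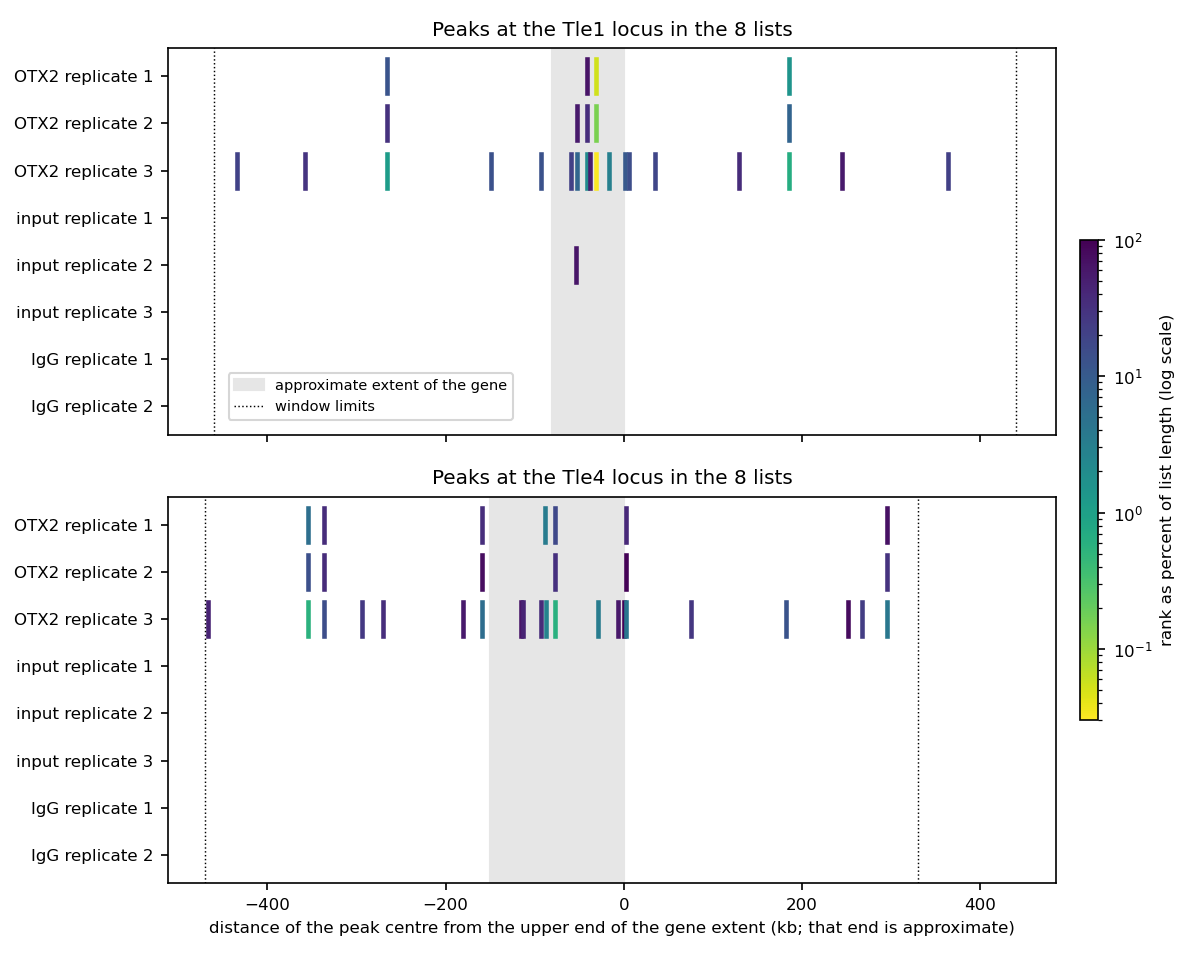
Position of each peak at Tle1 (top) and Tle4 (bottom) in the 8 lists, as distance in kb from the approximate upper end of the gene, where transcription starts; colour gives the rank as a percent of the length of the list (log scale, yellow is best), grey the approximate gene and dotted lines the window. OTX2 replicates 1 and 2 share 10 positions and hold 1 each alone, replicate 3 holds these 12 and 27 more, and the controls hold 1 peak in all.

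Overlapping OTX2 peaks were merged, and a region was kept where at least 2 of the 3 OTX2 lists had a peak and no control peak overlapped. This gave 5 regions at Tle1 and 7 at Tle4, out of 1949 in the genome. Of these 12, 10 were present in all 3 lists, where 40.5% of all regions were. Cutting the genome into adjoining stretches of 0.9 Mb gave a median of 0 and at most 9 regions per stretch, and 1.55% of stretches held at least the 5 of the Tle1 window. For stretches of 0.8 Mb the median was 0 and the highest count again 9, and 0.376% of stretches held at least the 7 of the Tle4 window. As the windows were selected on their peaks, these shares describe the loci and are no measure of enrichment.

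The Tle1 locus was dominated by a region inside the gene. It spanned 71827544 to 71830203 on chromosome 4, about 30 kb from the start end of the gene, and was ranked 1, 2 and 7 in replicates 1, 2 and 3. By the mean of rank as a percent of list length, a measure on which low is better, it stood at 0.0799 ± 0.0653% (SD, n = 3) and came second to 1 other among the 789 regions found in all 3 lists (place 2). Its peaks were 786, 876 and 2660 bp wide in replicates 1, 2 and 3, the widest of the locus in replicates 1 and 2, and the centres of the replicate 1 and 2 peaks lay 5 bp apart. The rank of this region was among the values that chose the locus. The lists differ in length, so the SD of a mean percentile, here and below, reflects list length as well as rank.

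A further pair of regions lay inside Tle1, both ranked far behind it. The region from 71818364 to 71819488, about 40 kb from the start end, was ranked 1192, 452 and 463 in replicates 1, 2 and 3. Its peak was narrow in replicate 1 (155 bp) and wider in replicates 2 and 3 (345 and 1125 bp). The region from 71806724 to 71808032 was found in replicate 2 at rank 738 and in replicate 3 at rank 1560, and replicate 1 had no peak there. The single control peak of the locus lay 231 bp from it, and what part that background had in the region was not tested. Requiring 1 kb between a region and any control peak removes it and leaves 4 regions at Tle1.

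The other Tle1 regions lay far from the gene, 1 on each side, and each about 190 kb from the nearer end of the extent. Upstream of the start, the region from 72044613 to 72046640 was ranked 28, 97 and 147 in replicates 1, 2 and 3, with peaks of 562, 510 and 2028 bp. Beyond the 3′ end, the region from 71593797 to 71595515 was ranked 225, 407 and 262, with peaks of 701, 260 and 1719 bp. The upstream region was the better ranked of the 2 in every library, at place 58 of 789 against place 252. The downstream region showed the largest shift of position of the locus, with 244 bp between the centres of the replicate 1 and 2 peaks.

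At Tle4 no region was ranked as well as the top Tle1 region, and the regions were more numerous than at Tle1. The lowest rank number at Tle4 was 64 in replicate 1, 177 in replicate 2 and 124 in replicate 3. The region from 14314844 to 14316782 on chromosome 19, about 200 kb beyond the 3′ end of the gene, was ranked 100, 177 and 124 in replicates 1, 2 and 3. With a mean percentile of 6.53 ± 6.61% (SD, n = 3) it was the best ranked of the 6 Tle4 regions in all 3 lists, at place 106 of 789. Its replicate 1 and 2 peaks, of 503 and 387 bp, had centres 5 bp apart. A neighbour from 14332936 to 14334052 was ranked 667, 486 and 3276, the lowest place in replicate 3 of any of the 12 regions.

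Inside Tle4 there were 2 regions. The region from 14592496 to 14593720, about 80 kb from the start end, was ranked 321, 416 and 128 in replicates 1, 2 and 3. The region from 14580994 to 14584002, about 90 kb from the start end, had the best rank of the locus in replicate 1 (64, from a peak of 524 bp) and rank 591 in replicate 3, and replicate 2 had no peak there. It had the lowest mean percentile of the locus, 3.06 ± 0.577% (SD, n = 2), which rested on replicates 1 and 3. That standing depended on the missing replicate 2 peak. Over replicates 1 and 3 alone, the region from 14314844 to 14316782 had a lower mean, 2.98%. Without replicate 1 or without replicate 3 the region from 14580994 to 14584002 was no longer kept. The lowest mean percentile at Tle4 then became 7.10% or 9.52%. The replicate 1 peak lay toward the lower edge of the 3009 bp replicate 3 peak, 854 bp from its centre, so the 2 libraries placed their peaks differently within this region.

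The remaining 3 Tle4 regions lay at both ends of the gene and far upstream. At the start end, the region from 14671783 to 14673658 was ranked 718, 1241 and 918 in replicates 1, 2 and 3, and its peaks were 221, 163 and 1876 bp wide. In replicate 2 it stood near the end of the list, at 95.6% of its length. At the 3′ end, within 10 kb of the extent, the region from 14509973 to 14511299 was ranked 633, 1006 and 1280. About 300 kb upstream of the start, the region from 14964099 to 14966715 was ranked 1267, 391 and 899. These 3 regions took places 715, 639 and 576 of 789, behind most regions found in all 3 lists.

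**Figure D2:**
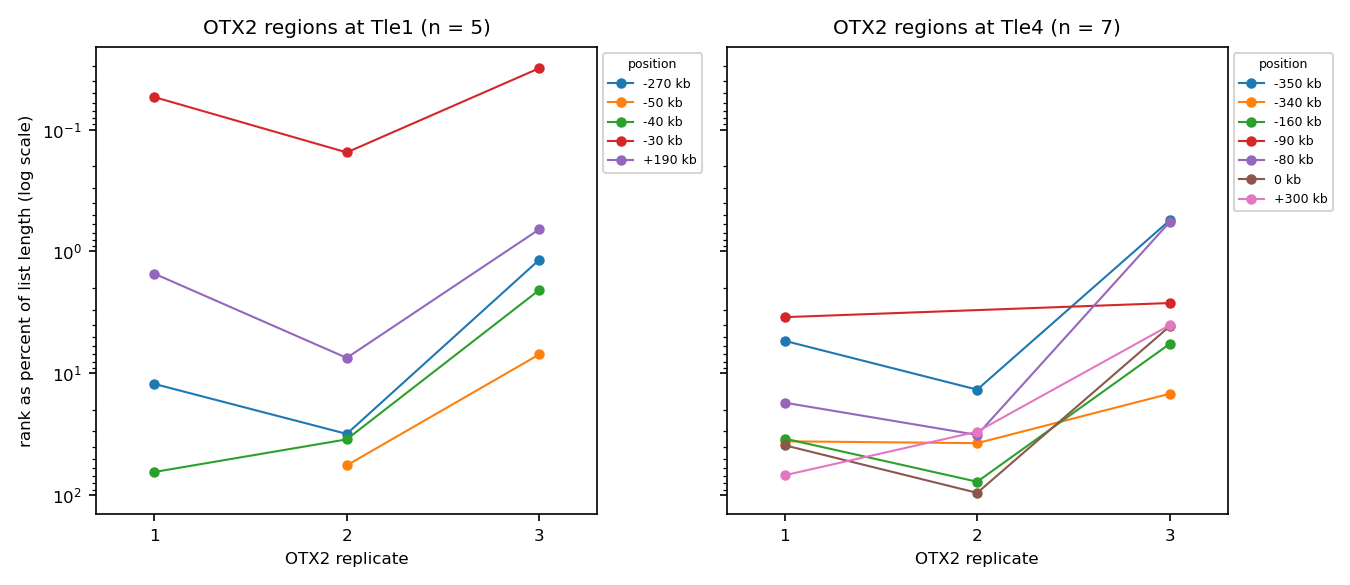
Rank of each OTX2 region at Tle1 (left) and Tle4 (right) in the 3 OTX2 lists, as a percent of list length on a log scale with the best rank at the top; points of a region are joined, and the key gives its distance from the approximate upper end of the gene to 10 kb. The Tle1 region about 30 kb from the upper end stands apart from the other 11 in all 3 libraries (0.0541, 0.154 and 0.0314%). Its ranks were among the values that chose the locus. No Tle4 region is better than 0.555%.

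Ranks of the regions were positively correlated between the 3 libraries, at the loci and over the genome. Over the 10 regions in all 3 lists, Spearman's rho of the ranks was 0.66 between replicates 1 and 2, 0.72 between replicates 1 and 3 and 0.81 between replicates 2 and 3. Over all 789 such regions it was 0.66, 0.75 and 0.76. These correlations are descriptions, and the regions share their libraries and the authors' ranking. The 10 include the Tle1 region whose ranks chose the locus, which is the best ranked of the 10 in every library. Their values are therefore not independent of the selection, and values without that region were not computed. In the 12 regions the median rank percentile was 17.4 in replicate 1, 32.0 in replicate 2 and 2.36 in replicate 3. Over all regions the median was 46.3, 47.5 and 4.98. By locus, the medians were 6.85, 31.4 and 1.17 at Tle1 and 34.3, 34.7 and 4.03 at Tle4. The Tle1 values include the region whose ranks chose the locus. The longer list of replicate 3 gives its regions lower percentiles everywhere.

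Replicates 1 and 2 shared most of their sites, and replicate 3 held all of these and others. All 11 replicate 1 peaks and all 11 replicate 2 peaks of the loci were overlapped by a replicate 3 peak, as were 87.9% and 92.1% of the whole lists, so these counts are near the background. Each of the 22 also lay wholly inside a replicate 3 peak, as did 89.4% over the genome. Of the 11 replicate 1 peaks, 10 were overlapped in replicate 2 (43.0% over the whole list), and of the 11 replicate 2 peaks, 10 were overlapped in replicate 1 (61.6% over the whole list). The exceptions were the Tle4 peak at rank 64 and the Tle1 peak at rank 738 described above. Of the 39 replicate 3 peaks, 12 were overlapped in replicate 1 or 2, where 8.83% of its whole list were. With every peak reduced to 200 bp at its centre, 16 of the 22 still met a replicate 3 peak.

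The width of the peaks followed the library more than the locus. In the regions of both loci the median peak was 314 bp wide in replicate 1 (155 to 786 bp, 11 peaks), 260 bp in replicate 2 (143 to 876 bp, 11 peaks) and 1798 bp in replicate 3 (1117 to 3009 bp, 12 peaks). Replicate 3 peaks were the widest in each of the 12 regions, and its narrowest exceeded the widest of replicates 1 and 2. Over all regions the medians were 199, 190 and 1372 bp. Centres of replicate 1 and 2 peaks lay a median of 30.5 bp apart over the 10 regions that both held (5 to 244 bp), against 45.5 bp over 794 such regions in the genome. Track names of replicate 3 and its input speak of an antibody test and carry a tag absent from those of replicates 1 and 2. A difference in antibody or in peak calling thus cannot be told apart from the replicate.

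**Figure D3:**
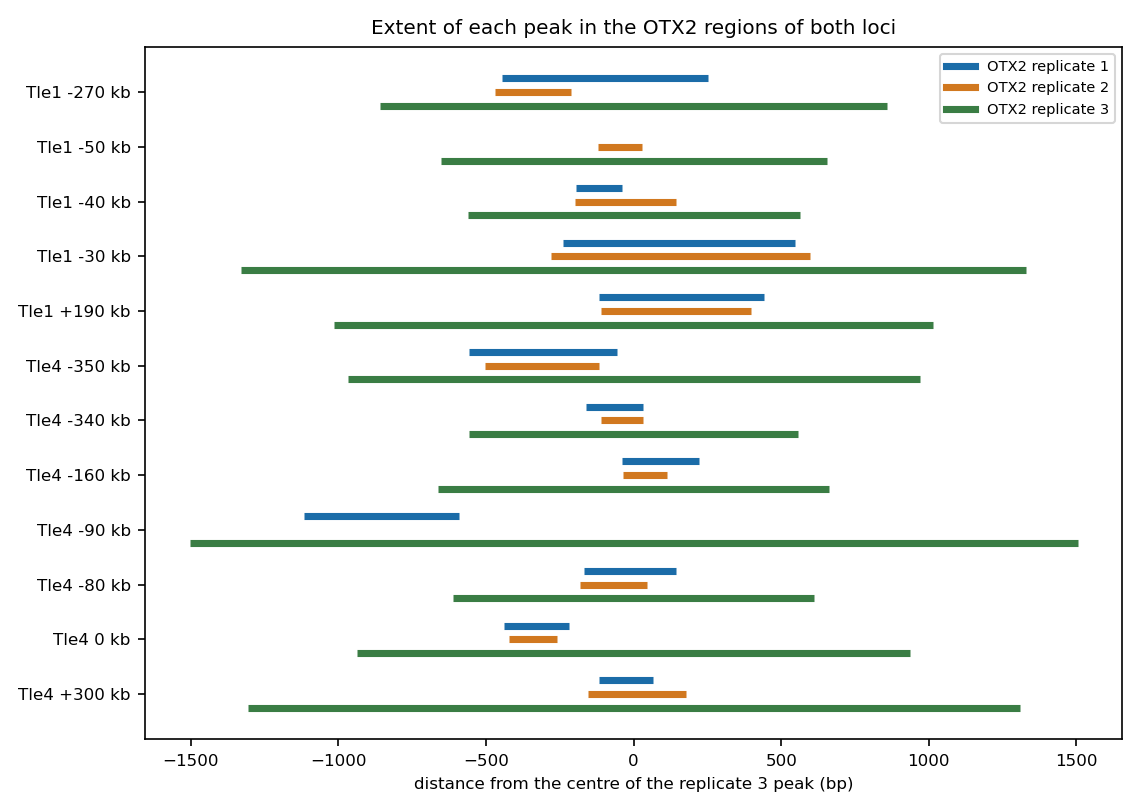
Extent in bp of each OTX2 peak in the 12 regions, drawn from the centre of the replicate 3 peak and labelled by gene and by distance from the approximate upper end of the gene to 10 kb. Every replicate 1 and 2 peak lies inside the wide replicate 3 peak, and where both are present their centres lie 5 to 244 bp apart; in the Tle4 region about 90 kb from the upper end the replicate 1 peak sits toward the edge.

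The other 27 replicate 3 peaks, 13 at Tle1 and 14 at Tle4, had no partner in replicates 1 and 2. Their ranks ran from 669 to 12919 at Tle1 (median 4476 of 22325) and from 765 to 21019 at Tle4 (median 9252), and their widths from 586 to 3709 bp. An intragenic peak was the best ranked at each locus. At Tle1 it spanned 71843068 to 71844419, between the top region and the start end, at rank 669. At Tle4 it spanned 14640058 to 14642115, at rank 765. No other peak of the 27 had a rank of 1298 or better.

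Replicate 3 alone also held peaks across the upper end of each extent. The Tle1 peak from 71859689 to 71863397 covered the 71.86 Mb mark, was the widest of both loci at 3709 bp, and was ranked 2384. The Tle4 peak from 14669784 to 14670388 covered the 14.67 Mb mark, was 605 bp wide and was ranked 21019. The region found in all 3 lists at the start end of Tle4 began above that mark, and with extents known to 10 kb it cannot be said which of these peaks, if any, covers a start.

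Close outside the windows, peaks were listed in replicate 3 alone. At Tle1 the outermost members were replicate 3 peaks of rank 4476, 26.3 kb inside the lower limit, and of rank 4746, 75.6 kb inside the upper limit. The nearest peaks outside were ranked 18336 (11.9 kb below) and 5576 (8.21 kb above). At Tle4 the outermost members had ranks 10330 (3.64 kb inside) and 899 (34.6 kb inside, in the upstream region), and the nearest outside had ranks 1861 (1.50 kb below) and 12550 (128 kb above). The nearest peaks of replicates 1 and 2 outside any limit lay 254 kb below the Tle1 window.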

How the data were processed

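ChIP-seq of the E12.5 CD-1 subpallium was deposited by the authors as 1 peak list per library (3 OTX2, 3 input, 2 IgG), with a chromosome, start, end and rank per peak, so peaks were called per sample. BWA, MACS 1.4 and mm9 appear in the submitters' processing notes. No source used here states which control, threshold or quantity lies behind the rank. Ranks were read only as an order within a list, and depth is unknown. Groups and replicate numbers came from the titles.

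The windows, gene extents, lists and rules were chosen with earlier results of these data known, so no test was run. Coordinates are mm9, written 1-based, and none was converted. Peaks sharing at least 1 bp were merged in Python 3.11.15. Medians, means and SDs were computed with numpy 2.4.6, and correlations with scipy 1.17.1. The overlap code was tested on simulated data, and 4 overlap counts were identical to those of bedtools 2.31.1. Figures were drawn with matplotlib 3.10.9. Promoter sequences, motif counts (exact matches, both strands), gene order and gene lengths came from RefSeq (GRCm38.p6). All regions in either window were named. Peaks at other Tle genes were not analysed here. Alternatives changed the number of lists required, overlap, width, list length, the treatment of controls, the window and the replicates used.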

Additional observations from a re-analysis of the deposited data

How the results depend on the processing

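Of 46 alternative values, 37 stayed close to those reported (counts within 1.5 times, rank percentiles within 1 SD, the overlap share inside its 95% interval) and 9 moved. That interval is a binomial one over 22 peaks, which are not independent, so it is only a rough limit. The values for the best Tle1 region rest on ranks that chose the locus. Their limit was wide, with an SD of 0.0653% for a mean of 0.0799%. The tally is thus no measure of stability. The count of regions depended on the definition of a region and of a locus. Accepting peaks of any 1 OTX2 list gave 18 groups at Tle1 and 21 at Tle4, the added ones all from replicate 3 alone. Keeping only what lay within 50 kb of the gene extents left 3 regions at Tle1 and 4 at Tle4. Leaving out a replicate gave 4 to 5 regions at Tle1 and 6 to 7 at Tle4. The lowest mean rank percentile at Tle4 (3.06%) was 6.53% when all 3 lists were required, 9.52% with peaks of 200 bp, and 2.98 to 9.52% with a replicate left out. Of these, all are means of the region from 14314844 to 14316782, over the lists that then count for it. The overlap of replicate 1 and 2 peaks with replicate 3 (100%) was 72.7% with peaks of 200 bp and 86.4% with lists of equal length. No paired analysis was possible because every result is a description without a test, the windows having been selected on their peaks. The third experiment had no IgG library. Limits of depth, and differences in antibody or peak calling between replicate 3 and the others, could not be assessed from lists without counts.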

Other observations

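The distances from the outermost regions to the next OTX2 regions outside the windows were unequal on the 2 sides of each locus. Above the upstream Tle1 region, the next OTX2 region on chromosome 4 lay 2.81 Mb away, from 74858408 to 74859412, at ranks 1470 and 4729 in replicates 1 and 3. Below the outermost Tle1 region the next lay 0.449 Mb away, from 71144300 to 71147080, at ranks 957, 229 and 146 in replicates 1, 2 and 3. Below the outermost Tle4 region the next on chromosome 19 lay 8.95 Mb away, from 5366372 to 5367324, at ranks 918, 917 and 428. Above the outermost Tle4 region the next lay 0.612 Mb away, from 15576541 to 15577957, at ranks 739 and 1149 in replicates 2 and 3. Replicate 3 peaks without a partner occur in the stretches just outside both windows, so these distances hold for regions of at least 2 lists. They were not compared with the spacing of regions over the genome.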
